A study of Mus musculus with 8 samples.

Results

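Formative and primed epiblast genes are the genes that mouse pluripotent cells switch on as they leave the naive state of the early blastocyst. They were followed here in mouse embryonic stem cells with and without β-catenin, each with and without GSK3 inhibition. The genes were taken by name: Fgf5, Fgf15, Pou3f1, Otx2, Grhl2, Oct6, Zic2, Sox4 and Sox11. Of these 9 names 8 have a row among the 48440 genes of the count table; Oct6 has none and is an older name of Pou3f1. Of the 8 genes 7 passed the filter on low counts, which kept 17739 genes in all, and Fgf5 did not.

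The cells were of the 129/Ola background and either knock-out for β-catenin (CTNNB1-/-) or parental (CTNNB1+/+). The 4 groups were knock-out cells with CHIR99021, knock-out cells with DMSO, parental cells with CHIR99021 and parental cells with DMSO, with 2 libraries each. CHIR99021, an inhibitor of the kinase GSK3, was given at 3 μM and its vehicle DMSO at 0.3 μl/ml, for 72 hours in all groups. All cells were grown in medium with serum, on gelatin and without feeder cells. The labels name 1 knock-out line and 1 parental line, so genotype and line cannot be told apart, and they do not say whether the libraries of a group came from separate cultures. The spread behind each p-value is therefore that of these libraries alone and may be technical in origin.

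Naive embryonic stem cells resemble the inner cell mass before implantation, and the formative state is the step at which the epiblast becomes able to form the germ layers. Otx2 encodes a homeodomain protein that drives this exit and works with OCT4 at new enhancers. GSK3 keeps β-catenin low by marking it for destruction, and GSK3 inhibitors are used in culture media that hold cells in the naive state. Fibroblast growth factor signalling through ERK works in the other direction and favours the exit.

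Library totals ran from 23650572 to 27680649 estimated counts, so that 10 counts correspond to 0.355 to 0.429 CPM (a gene's counts relative to the scaled library total). Ctnnb1, which encodes β-catenin, was at 7.976 to 10.72 CPM in the 4 knock-out libraries and at 813.4 to 905.6 CPM in the 4 parental libraries. All 10 embryonic stem cell markers were detected in every group. Pou5f1, which encodes OCT4, lay between 1350 and 1570 CPM over the 8 libraries. A change in these bulk libraries can come from fewer cells with a transcript or from less of it per cell, which cannot be told apart.

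These genes were weakly expressed. Per kilobase of annotated exon, the median over the 8 libraries was 3.43 CPM for Fgf15, 1.89 for Sox4, 1.2 for Pou3f1, 0.564 for Grhl2 and 0.484 for Sox11. It was 0.246 CPM per kilobase for Zic2, 0.184 for Otx2 and 0.059 for Fgf5. On the same scale Pou5f1 had a median of 645 and Sox2 of 126 CPM per kilobase. The summed level of the 8 genes was 29.41 and 30.28 CPM in knock-out cells with CHIR99021, 43.87 and 41.16 CPM in knock-out cells with DMSO, 23.45 and 21.03 CPM in parental cells with CHIR99021, and 44.39 and 45.23 CPM in parental cells with DMSO.

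**Figure D1:**
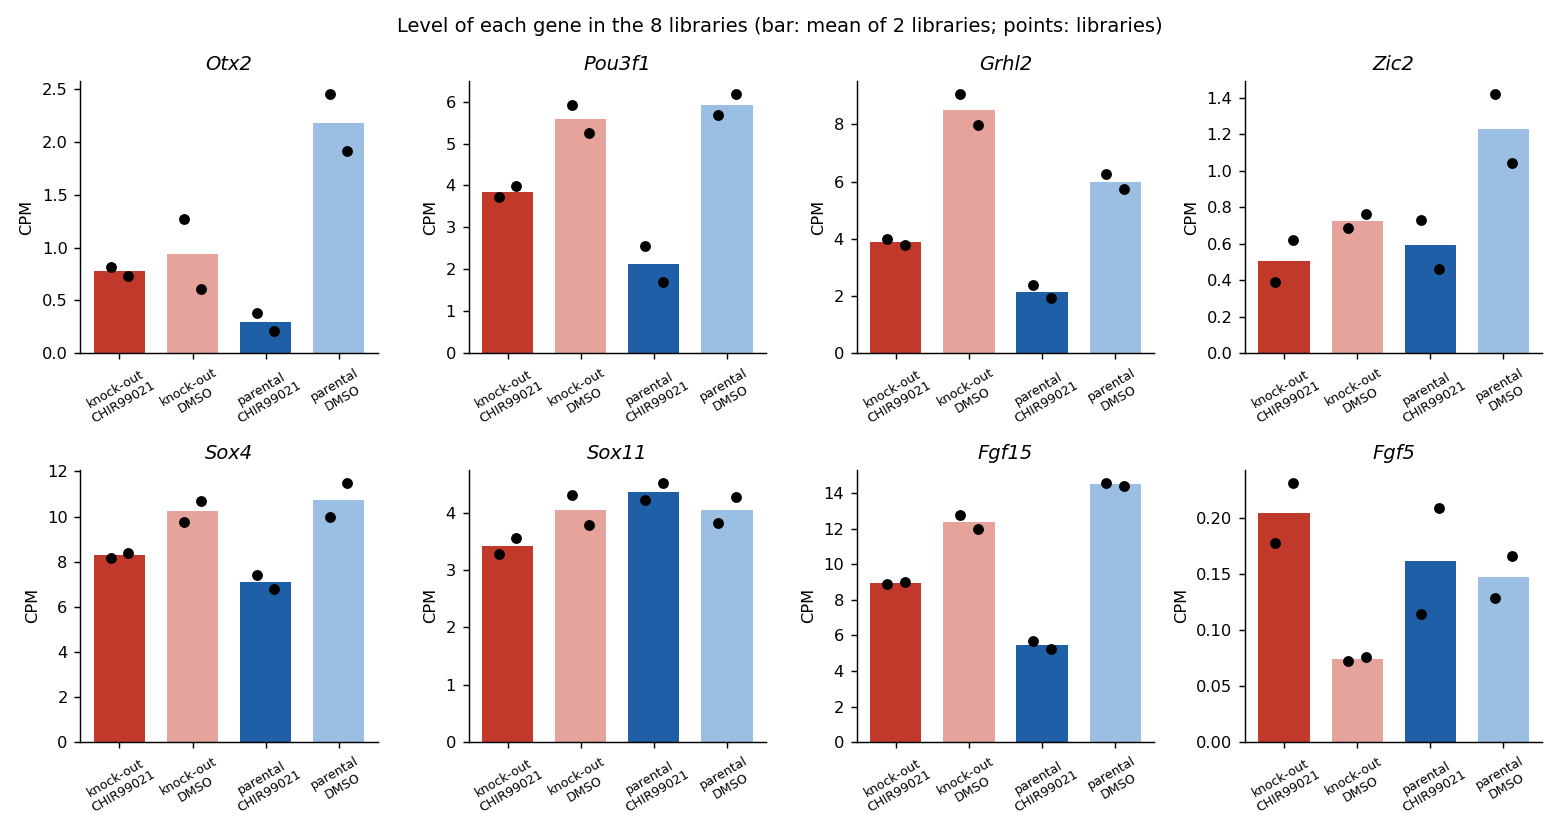
Level of each of the 8 genes in CPM (y axis, each panel with its own scale from 0) in the 4 groups (x axis); bars are means of 2 libraries and points are the libraries. Otx2, Pou3f1, Grhl2, Zic2, Sox4 and Fgf15 are lower in both parental libraries with CHIR99021 than in both with DMSO, whereas the Sox11 libraries of these groups overlap and Fgf5 is at most 0.232 CPM in every library.

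Windows before the annotated starts of 4 of the genes were read from RefSeq (GRCm38.p6). Otx2 is shown because it had the largest change of the 7 tested genes, and Sox4 with Sox11 because these relatives differed in whether they passed the test. Each is the 250 bases before a start, 5′ to 3′ on the strand of the gene. The Otx2 window, at chr14:48667645-48667894 on the minus strand, belongs to the start that lies farthest upstream of the 4 Otx2 starts that RefSeq supplied. It lies inside the gene as GENCODE M21 annotates it, 48657677 to 48673819. No window at the upstream end of that span was read or searched. The Sox4 window, at chr13:28953700-28953949 on the minus strand, ends 14 bases inside the exon that GENCODE M21 annotates, and the Sox11 window lies at chr12:27342719-27342968 on the minus strand.
Otx2: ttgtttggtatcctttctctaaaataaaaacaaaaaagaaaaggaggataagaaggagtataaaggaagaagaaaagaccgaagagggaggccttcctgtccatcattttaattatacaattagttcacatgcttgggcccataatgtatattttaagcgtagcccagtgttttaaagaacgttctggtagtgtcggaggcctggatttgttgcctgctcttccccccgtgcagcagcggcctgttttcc
Sox4: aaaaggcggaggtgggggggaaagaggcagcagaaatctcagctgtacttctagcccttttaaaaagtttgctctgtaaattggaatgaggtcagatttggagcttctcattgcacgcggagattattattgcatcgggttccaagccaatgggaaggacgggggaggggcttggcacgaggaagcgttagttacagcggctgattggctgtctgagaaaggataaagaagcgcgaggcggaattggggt
Sox11: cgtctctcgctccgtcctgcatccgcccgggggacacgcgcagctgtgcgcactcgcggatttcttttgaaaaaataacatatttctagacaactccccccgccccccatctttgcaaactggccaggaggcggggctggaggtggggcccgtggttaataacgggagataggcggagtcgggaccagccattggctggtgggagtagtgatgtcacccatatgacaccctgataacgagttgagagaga
The TCF/LEF core motifs CTTTGAT and CTTTGAA, looked for on both strands, had no match in any of the 7 windows of Otx2, Sox4, Sox11 and Fgf5, which is why no letters stand in capitals. At least 1 of them is held by 7.48% of the 32851 windows of that length that RefSeq supplied. The GC content was 42% in the Otx2 window, 50.8% in that of Sox4 and 58% in that of Sox11, and the median of all windows was 52.4%.

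The effect of GSK3 inhibition on these genes was examined first in cells that have β-catenin. With CHIR99021 5 of the 7 tested genes fell in parental cells and none rose: Otx2, Grhl2, Pou3f1, Fgf15 and Sox4. Over all genes tested 10.3% fell and 9.10% rose (edgeR quasi-likelihood test, Benjamini-Hochberg adjusted p under 0.05). The median log2 fold change of the 7 genes was -1.41, and that of all genes tested was 0.00398. Libraries of the 2 treatments did not overlap, with the CHIR99021 libraries lower, for 6 of the 7 genes and for 29.6% of all genes tested; they were higher without overlap for none of the 7 and for 29.9% of all.

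Among the 7 tested genes, the transcription factor genes Otx2, Grhl2 and Pou3f1 had the largest changes in parental cells. Otx2 (ENSMUSG00000021848, GRCm38 chromosome 14, 48657677 to 48673819) was at 0.383 and 0.209 CPM in parental cells with CHIR99021, against 2.45 and 1.91 CPM in parental cells with DMSO. Both CHIR99021 libraries were far below both DMSO libraries, and the summed estimated counts were 15 and 103. The log2 fold change was -2.84 ± 0.43 (SE), with an adjusted p of 0.000737 (edgeR). The ratio of summed counts, 0.138, had a 95% interval of 0.0745 to 0.238, which covers counting error only.

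Pou3f1 (ENSMUSG00000090125, chromosome 4, 124656807 to 124660655), which encodes the POU factor OCT6 of the early epiblast and of neural and Schwann cell development, was at 2.57 and 1.71 CPM in parental cells with CHIR99021, against 5.67 and 6.18 CPM with DMSO. The groups did not overlap, although the CHIR99021 libraries differed between themselves. The gene fell by 1.46 on the log2 scale (SE 0.185; edgeR adjusted p = 0.00022). Grhl2 (ENSMUSG00000022286, chromosome 15, 37233036 to 37363569) encodes a Grainyhead-like factor that opens enhancers of epithelial genes in the formative state. It was at 2.38 and 1.92 CPM with CHIR99021, against 6.27 and 5.73 CPM with DMSO, again with no overlap. Its log2 fold change was -1.47 ± 0.16 (SE; edgeR adjusted p = 5.68e-05).

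The zinc-finger gene Zic2 (ENSMUSG00000061524, chromosome 14, 122475435 to 122479852), which takes part in the formation of primed enhancers and later of the forebrain, was at 0.728 and 0.46 CPM with CHIR99021, against 1.42 and 1.04 CPM with DMSO. The libraries did not overlap, but with 30 and 58 summed counts the log2 fold change of -1.03 ± 0.38 (SE) did not pass (edgeR adjusted p = 0.0818). The unadjusted 95% interval of that value runs from -1.86 to -0.198.

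Sox4 and Sox11 encode relatives of the SoxC group, HMG-box factors best known from neural progenitors and their daughters. Sox4 (ENSMUSG00000076431, chromosome 13, 28948919 to 28953713) was at 7.39 and 6.77 CPM in parental cells with CHIR99021, against 10 and 11.5 CPM with DMSO. It fell by 0.606 on the log2 scale (SE 0.107; edgeR adjusted p = 0.00227), a smaller change than those of Otx2, Grhl2, Pou3f1 and Fgf15, in libraries that did not overlap. Sox11 (ENSMUSG00000063632, chromosome 12, 27334264 to 27342574) was at 4.21 and 4.52 CPM with CHIR99021, against 3.82 and 4.27 CPM with DMSO, and these ranges overlapped. Its log2 fold change was 0.11 ± 0.15 (SE; edgeR adjusted p = 0.68; unadjusted 95% interval -0.225 to 0.44). The transcript Gm26735 shares 2616 exon bases with Sox4 on the opposite strand and had 697.5 counts over the 8 libraries. Whether the counting used strand is not given in the sources used here, so reads of this pair may be mixed.

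Of the secreted factors, Fgf15 (ENSMUSG00000031073, chromosome 7, 144896531 to 144900953), the mouse counterpart of human FGF19 and a hormone-like fibroblast growth factor, was at 5.67 and 5.23 CPM in parental cells with CHIR99021, against 14.6 and 14.4 CPM with DMSO. Replicates differed by little beside the gap between the treatments. The log2 fold change was -1.41 ± 0.09 (SE; edgeR adjusted p = 1.49e-06). Fgf5 (ENSMUSG00000029337, chromosome 5, 98254184 to 98277030), the classical marker of the epiblast after implantation, had 3 and 5 estimated counts with CHIR99021 and 3 and 4 with DMSO. The ratio of its summed counts was 1.08 with a 95% counting interval of 0.343 to 3.51, so that neither a fall nor a rise within that range was detectable at this depth.

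**Figure D2:**
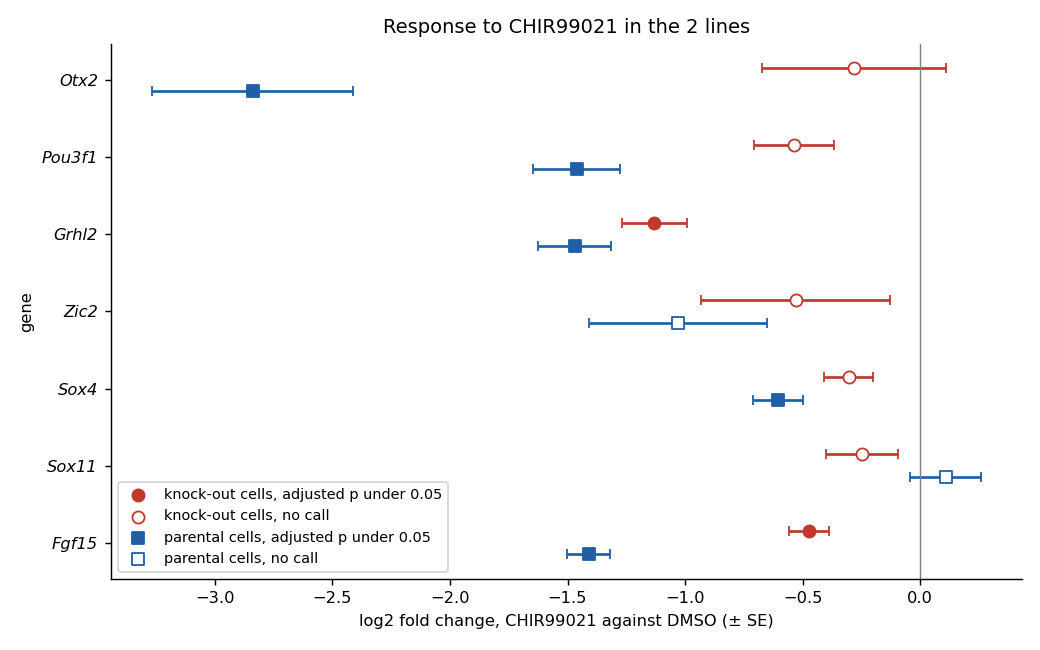
Log2 fold change of CHIR99021 against DMSO (x axis, bars are SE) of the 7 tested genes (y axis) in knock-out cells (circles, upper) and parental cells (squares, lower); filled symbols have an adjusted p under 0.05. Otx2 lies at -0.28 in knock-out cells and -2.84 in parental cells, and Grhl2 at -1.13 and -1.47.

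The second comparison asked what remains of this response without β-catenin. In knock-out cells 2 of the 7 tested genes fell with CHIR99021, Grhl2 and Fgf15, and none rose; of all genes tested 4.18% fell and 2.88% rose. The median log2 fold change was -0.473 for the 7 genes and -0.00276 for all genes. All 7 values were below 0, and the libraries of 6 of the genes did not overlap and were lower with CHIR99021, as those of 26.9% of all genes tested; none of the 7 was higher without overlap, where 25.4% of all genes were.

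Grhl2 was at 3.98 and 3.78 CPM in knock-out cells with CHIR99021, against 9.06 and 7.97 CPM in knock-out cells with DMSO. The gap between treatments was several times that between replicates, and the log2 fold change was -1.13 ± 0.14 (SE; edgeR adjusted p = 0.0012). Fgf15 was at 8.88 and 9 CPM with CHIR99021, against 12.8 and 12 CPM with DMSO, and fell by 0.473 on the log2 scale (SE 0.0864; edgeR adjusted p = 0.0101). That call was lost with DESeq2 (adjusted p = 0.0631) and without knock-out DMSO replicate 1 (0.0924), CHIR99021 replicate 1 (0.0703) or CHIR99021 replicate 2 (0.0667). Over all its alternatives the adjusted p of Fgf15 ran from 0.000862 to 0.0924.

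The other genes did not pass in knock-out cells. Pou3f1 was at 3.73 and 3.98 CPM with CHIR99021, against 5.91 and 5.26 CPM with DMSO, libraries that did not overlap (log2 fold change -0.54 ± 0.17; edgeR adjusted p = 0.0865). Without the low-count filter it passed at 0.0286. Otx2 was at 0.817 and 0.734 CPM with CHIR99021, inside the range of the DMSO libraries, 1.27 and 0.61 CPM. Its log2 fold change of -0.28 ± 0.39 (edgeR adjusted p = 0.732) had an unadjusted 95% interval of -1.14 to 0.58 and turned to 0.343 without knock-out DMSO replicate 1.

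Zic2 was at 0.391 and 0.618 CPM with CHIR99021, against 0.689 and 0.763 CPM with DMSO (log2 fold change -0.53 ± 0.40; edgeR adjusted p = 0.476). Sox4 was at 8.17 and 8.38 CPM, against 9.75 and 10.7 CPM (-0.30 ± 0.10; adjusted p = 0.109), and Sox11 at 3.27 and 3.55 CPM, against 4.31 and 3.78 CPM (-0.25 ± 0.15; adjusted p = 0.362). In each of these 3 genes the CHIR99021 libraries were lower than the DMSO libraries with no overlap. Fgf5 had 5 and 6 counts with CHIR99021 and 2 and 2 with DMSO, a ratio of 2.74 with a 95% counting interval of 0.811 to 11.8.

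The difference between the responses of the 2 lines was tested as an interaction, the log2 response of knock-out cells minus that of parental cells. It passed for 2 of the 7 genes, both positive, against 3.22% of all genes with a positive and 2.91% with a negative interaction. Fgf15 had a value of 0.94 ± 0.13 (SE; edgeR adjusted p = 0.00118), so its fall was smaller in knock-out cells, and this call held in each of the 14 alternative fits at the same threshold; the interaction, a ratio of 1.91, would not pass a fold change over 2. Otx2 had a value of 2.56 ± 0.59 (SE; edgeR adjusted p = 0.0269). It did not pass once parental DMSO replicate 1 (0.0901) was left out, nor without parental CHIR99021 replicate 1 (0.0501) or 2 (0.0939), or knock-out CHIR99021 replicate 1 (0.0902) or 2 (0.078), within a range of 5.24e-05 to 0.0939 over its alternatives.

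Pou3f1, at 0.92 ± 0.25, had nearly the same value as Fgf15 with a larger error and did not pass (edgeR adjusted p = 0.0568). It passed with no filter (0.00747), with at least 5 CPM in 2 libraries (0.0413) and without parental CHIR99021 replicate 1 (0.0213), within a range of 0.00747 to 0.202. Grhl2, which fell in both lines, had an interaction of 0.34 ± 0.21 (adjusted p = 0.397), and the unadjusted 95% interval of -0.122 to 0.803 leaves room for a smaller fall in knock-out cells. Zic2 at 0.50 ± 0.56, Sox4 at 0.30 ± 0.15 and Sox11 at -0.36 ± 0.21 did not pass (adjusted p 0.287 to 0.673).

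Knock-out and parental cells were then compared within each treatment; these comparisons share libraries with those above. In DMSO 1 of the 7 genes differed. Grhl2 was at 9.06 and 7.97 CPM in knock-out cells, against 6.27 and 5.73 CPM in parental cells, a log2 fold change of 0.51 ± 0.13 (SE; edgeR adjusted p = 0.0464). Over all genes tested 3.13% were higher and 3.62% lower in knock-out cells. Without overlap 1 of the 7 genes was higher and 3 were lower in knock-out cells, against 24.8% of all genes in each direction. The Grhl2 call was lost with DESeq2 (adjusted p = 0.24), with the compared groups alone (0.0547) and without any 1 of the 4 DMSO libraries (0.0777 to 0.235) or either knock-out CHIR99021 library (0.0739 and 0.0749). Its alternatives ranged from 0.0206 to 0.24.

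Otx2 was lower in knock-out than in parental cells in DMSO in every library, but its log2 fold change of -1.20 ± 0.35 did not pass (edgeR adjusted p = 0.0724). It passed with limma-voom (0.0459), with the replicate block (0.0383) and with no filter (0.00357). Fgf15 at -0.22 ± 0.08 and Zic2 at -0.75 ± 0.37 were also lower in both knock-out libraries without passing (adjusted p = 0.149 and 0.268). Pou3f1 at -0.08 ± 0.17, Sox4 at -0.08 ± 0.10 and Sox11 at 0.00 ± 0.15 had overlapping libraries (adjusted p 0.725 to 1). Fgf5 had 2 and 2 counts in knock-out cells and 3 and 4 in parental cells.

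With CHIR99021, 3 of the 7 genes were higher in knock-out than in parental cells and none was lower, where 11.2% of all genes tested were higher and 12.5% lower. Without overlap 5 of the 7 were higher and 1 lower in knock-out cells, against 31.0% and 31.4% of all genes. Fgf15 was at 8.88 and 9 CPM in knock-out cells, against 5.67 and 5.23 CPM in parental cells (log2 fold change 0.71 ± 0.10; edgeR adjusted p = 0.00031). Pou3f1 was at 3.73 and 3.98 CPM, against 2.57 and 1.71 CPM (0.84 ± 0.19; adjusted p = 0.00849), and Grhl2 at 3.98 and 3.78 CPM, against 2.38 and 1.92 CPM (0.85 ± 0.16; adjusted p = 0.00314). The Pou3f1 call was lost without parental CHIR99021 replicate 2 (0.0655) or knock-out CHIR99021 replicate 2 (0.0532), within a range of 0.000246 to 0.0655.

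Otx2, at 0.817 and 0.734 CPM in knock-out cells against 0.383 and 0.209 CPM in parental cells, had a log2 fold change of 1.36 ± 0.48 and did not pass (edgeR adjusted p = 0.0603). It passed with the replicate block (0.0321), with no filter (0.0111) and without either knock-out DMSO library (0.0371 and 0.0356). Sox4 was at 0.22 ± 0.11, Zic2 at -0.25 ± 0.42 and Sox11 at -0.36 ± 0.15 (adjusted p 0.118 to 0.713), and the Sox11 libraries were lower in knock-out cells with no overlap. Fgf5 had 5 and 6 counts in knock-out cells and 3 and 5 in parental cells.

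The order of the 4 groups by mean level was therefore not the same for all genes. Fgf15 was highest in parental cells with DMSO, at 14.5 ± 0.14 CPM (SD, n = 2), followed by knock-out cells with DMSO at 12.4 ± 0.552, knock-out cells with CHIR99021 at 8.94 ± 0.0837 and parental cells with CHIR99021 at 5.45 ± 0.313 CPM, and no neighbours in this order overlapped. Pou3f1 and Sox4 had the same order, but their DMSO groups overlapped. Grhl2 was highest in knock-out cells with DMSO, at 8.52 ± 0.771 CPM (SD, n = 2), and lowest in parental cells with CHIR99021, at 2.15 ± 0.319 CPM, with no overlap between neighbours. Otx2 was highest in parental cells with DMSO, at 2.18 ± 0.381 CPM, and its 2 knock-out groups overlapped. For Sox11 the group means lay between 3.41 and 4.37 CPM, and only the lowest group, knock-out cells with CHIR99021, stood apart from its neighbour.

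A wider list of 22 formative and primed genes, with no member in common with the 8, showed which of their companions moved; 19 were tested. With CHIR99021 7 fell and none rose in knock-out cells (median log2 fold change -0.151), and 10 fell and 2 rose in parental cells (median -0.249). Beside them, 4.18% of all genes tested fell and 2.88% rose in knock-out cells, and 10.3% fell and 9.10% rose in parental cells. Dnmt3a, a de novo DNA methyltransferase gene, was at 102 and 106 CPM in knock-out cells with CHIR99021, against 134 and 125 CPM with DMSO, and at 43.5 and 43.1 CPM in parental cells with CHIR99021, against 91.5 and 87.8 CPM with DMSO. It fell in both lines without overlap of libraries, by 0.319 in knock-out cells (SE 0.0462; edgeR adjusted p = 0.0029) and by 1.05 in parental cells (SE 0.0501; adjusted p = 1.4e-07) on the log2 scale. Its sister gene Dnmt3b was at -0.17 ± 0.05 in knock-out cells (adjusted p = 0.0914) and rose by 0.26 ± 0.06 in parental cells (adjusted p = 0.00742).

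Utf1, which encodes a chromatin protein of pluripotent cells, fell by 0.444 in knock-out and 0.874 in parental cells on the log2 scale, and Tdgf1, which encodes a co-receptor of Nodal, by 0.151 and 0.471 (edgeR adjusted p 1.21e-05 to 0.0497). Etv4, an ETS factor gene downstream of fibroblast growth factors, was at 0.105 ± 0.04 in knock-out cells (adjusted p = 0.17) and rose by 0.37 ± 0.04 in parental cells (adjusted p = 0.000113). Fgf8, Wnt8a and Otx1, further genes of the early epiblast or streak, did not pass the filter on low counts. The interaction passed for 7 of the 19 genes, 5 positive and 2 negative, against 3.22% and 2.91% of all genes tested. The interaction was 0.73 ± 0.07 for Dnmt3a, 0.32 ± 0.06 for Tdgf1, 0.49 ± 0.10 for Lin28b, an inhibitor of let-7 maturation, and -0.43 ± 0.08 for Dnmt3b (adjusted p 8.68e-05 to 0.0131). The knock-out count of 7 was 3 without knock-out DMSO replicate 1, 1 without knock-out CHIR99021 replicate 1 and 2 without knock-out CHIR99021 replicate 2. The interaction count of 7 was 4 without parental DMSO replicate 1, parental CHIR99021 replicate 1 or knock-out CHIR99021 replicate 1, and 3 without knock-out CHIR99021 replicate 2.

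Set against DMSO-treated parental cells, DMSO-treated knock-out cells had 3 of the 19 genes higher and 1 lower: Dnmt3a at 0.53 ± 0.05, the ligand gene Nodal at 0.25 ± 0.05, the kinase gene Pim2 at 0.36 ± 0.08, and Zic5 at -0.51 ± 0.12 on the log2 scale (edgeR adjusted p 0.000134 to 0.0361). The count of 4 became 1 without either parental DMSO library. In CHIR99021 7 were higher and 3 lower in knock-out cells, with Dnmt3a at 1.26 ± 0.05, Sall2 at 1.01 ± 0.11, Lin28b at 0.64 ± 0.07 and Utf1 at 0.58 ± 0.08 (adjusted p 2.44e-08 to 0.000593). Of all genes tested 3.13% were higher and 3.62% lower in knock-out cells in DMSO, and 11.2% higher and 12.5% lower in CHIR99021.

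**Figure D3:**
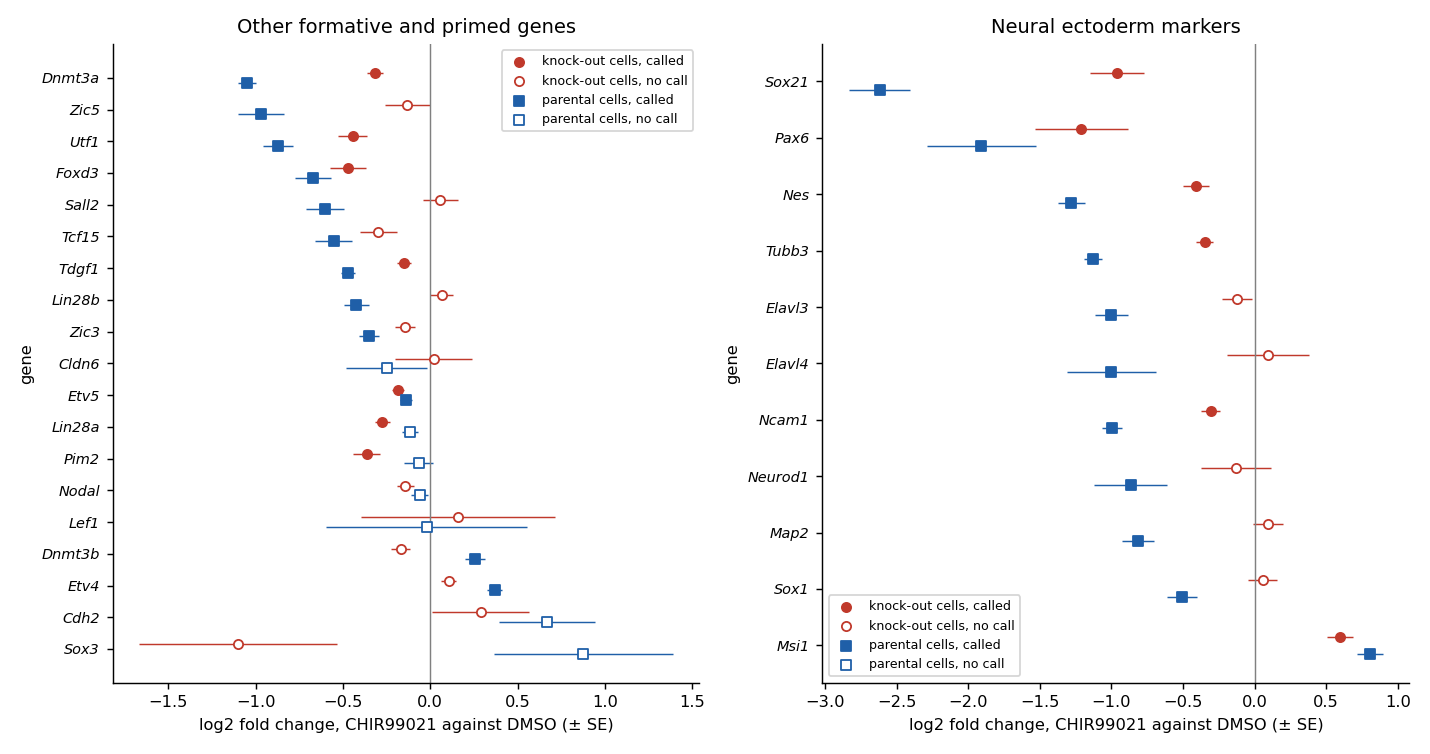
Log2 fold change of CHIR99021 against DMSO (x axis, bars are SE) in knock-out cells (circles) and parental cells (squares) for the tested genes of 2 lists (y axis): other formative and primed genes on the left and neural ectoderm markers on the right; filled symbols have an adjusted p under 0.05. In knock-out cells 7 of 19 genes on the left and 5 of 11 on the right are called lower, beside 4.18% of all genes tested. In parental cells 10 and 10 are called lower, beside 10.3% of all genes tested.

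Close relatives of the 8 genes by family were examined next, since a family can hold a partner that is more abundant. Of 19 relatives 12 were tested. With CHIR99021 3 fell in knock-out and 7 in parental cells, and none rose (median log2 fold change -0.138 and -0.593). Here 4.18% of all genes tested fell and 2.88% rose in knock-out cells, and 10.3% fell and 9.10% rose in parental cells. Grhl3 fell in both lines, by 0.42 in knock-out cells and 0.795 in parental cells on the log2 scale (edgeR adjusted p = 0.00673 and 2.87e-05). Grhl1 was at 0.14 ± 0.15 in knock-out cells (adjusted p = 0.642) and at -0.45 ± 0.16 in parental cells (adjusted p = 0.0765) and passed in neither. Sox12, the remaining SoxC gene, fell by 0.355 in knock-out and 0.745 in parental cells (adjusted p = 0.0265 and 8.73e-05). Fgf17, close to Fgf8 in sequence, fell by 0.628 in knock-out and 0.648 in parental cells (adjusted p = 0.000581 and 4.69e-05).

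Fgf4, the main fibroblast growth factor gene of embryonic stem cells, was at 197 and 194 CPM in knock-out cells with CHIR99021, against 194 and 194 CPM with DMSO, and at 112 and 111 CPM in parental cells with CHIR99021, against 196 and 197 CPM with DMSO. The treatments lay side by side in knock-out cells (log2 fold change 0.02 ± 0.04; edgeR adjusted p = 0.847) and far apart in parental cells, where Fgf4 fell by 0.821 on the log2 scale (SE 0.0367; adjusted p = 8.91e-08). Its interaction was 0.84 ± 0.05 (adjusted p = 4.96e-06). Zic5, the neighbour of Zic2 on chromosome 14, had an interaction of 0.84 ± 0.18 (adjusted p = 0.021), with a value of -0.13 ± 0.13 in knock-out cells (adjusted p = 0.591) and a fall of 0.97 in parental cells (adjusted p = 0.000338). These 2 were the relatives whose interaction passed, and 1 passed without either parental DMSO library, parental CHIR99021 replicate 1, knock-out DMSO replicate 1 or knock-out CHIR99021 replicate 1. Of all genes tested, 3.22% had a positive and 2.91% a negative interaction that passed. Pou3f2, Zic1, Zic4, Fgf8, Fgf21, Fgf23 and Otx1 did not pass the filter on low counts.

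Receptors and response genes of fibroblast growth factors bear on Fgf5 and Fgf15. Of 17 tested genes 3 fell and none rose with CHIR99021 in knock-out cells, and 9 fell and 4 rose in parental cells (median log2 fold change -0.101 and -0.218). Among all genes tested 4.18% fell and 2.88% rose in knock-out cells, and 10.3% fell and 9.10% rose in parental cells. The knock-out count was 1 without knock-out DMSO replicate 1 and 0 without either knock-out CHIR99021 library, and the parental count of 13 was 8 without parental DMSO replicate 1 or parental CHIR99021 replicate 1. Fgfr4, the receptor gene for FGF15 in the liver, was at 0.30 ± 0.20 in knock-out cells (edgeR adjusted p = 0.423) and rose by 0.90 ± 0.22 in parental cells (adjusted p = 0.0148). Klb, its co-receptor gene, was at 0.355 CPM or less in every library. Dusp4, which encodes an ERK phosphatase, was at 0.30 ± 0.17 in knock-out cells (adjusted p = 0.318) and fell by 1.41 on the log2 scale in parental cells (adjusted p = 0.000259). The ETS factor gene Etv1 fell by 0.334 in knock-out and 0.968 in parental cells (adjusted p = 0.0103 and 1.78e-06). Over all genes tested a positive interaction passed for 3.22% and a negative one for 2.91%. The interaction passed for 4 of the 17 genes, 2 positive, Dusp4 at 1.71 ± 0.25 and Etv1 at 0.635 ± 0.0895 (adjusted p = 0.00176 and 0.00146), and 2 negative, with Etv4 at -0.265 ± 0.0607 (adjusted p = 0.0262). It passed for 2 without parental DMSO replicate 1, parental CHIR99021 replicate 1 or knock-out CHIR99021 replicate 2.

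Of 19 tested epithelial genes tied to GRHL2, 4 rose and 1 fell with CHIR99021 in knock-out cells, where 2.88% of all genes rose and 4.18% fell, and 4 rose and 1 fell in parental cells, where 9.10% rose and 10.3% fell (median log2 fold change of the 19 genes -0.0562 and 0.144). The knock-out count of 5 was 3 without knock-out DMSO replicate 1 and 2 without knock-out CHIR99021 replicate 1. The keratin gene Krt8 rose by 0.32 ± 0.07 in knock-out and 0.85 ± 0.07 in parental cells, the membrane protease gene St14 by 0.37 ± 0.08 and 0.88 ± 0.08, and its inhibitor gene Spint1 by 0.25 ± 0.05 and 0.53 ± 0.05 on the log2 scale (edgeR adjusted p 6.95e-06 to 0.0206). Epcam, which encodes an adhesion protein, fell by 0.461 in knock-out and 0.519 in parental cells (adjusted p = 0.00498 and 0.000709). Cldn4, a tight-junction gene, rose in knock-out cells by 0.49 ± 0.07 (adjusted p = 0.0021) and was at -0.12 ± 0.07 in parental cells (adjusted p = 0.267). Over all genes tested a positive interaction passed for 3.22% and a negative one for 2.91%. The interaction passed for 6 of the 19 genes, 1 positive, Cldn4 at 0.615 ± 0.097, and 5 negative, among them Krt8 at -0.53 ± 0.10, St14 at -0.51 ± 0.11 and Spint1 at -0.28 ± 0.07 (adjusted p 0.00305 to 0.0421). Elf3 had the smallest adjusted p of the 5 negative ones. It rose by 0.58 ± 0.07 in parental cells (edgeR adjusted p = 0.000132) and was not called in knock-out cells, with means of 41 CPM in both treatments. That count was 3 without parental DMSO replicate 2, knock-out DMSO replicate 1 or knock-out CHIR99021 replicate 2.

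Markers of other lineages moved beside these genes. Of 11 tested neural ectoderm markers 5 fell and 1 rose with CHIR99021 in knock-out cells, and 10 fell and 1 rose in parental cells (median log2 fold change -0.131 and -1). Among all genes tested 4.18% fell and 2.88% rose in knock-out cells, and 10.3% fell and 9.10% rose in parental cells. The knock-out count of 6 became 1 without knock-out DMSO replicate 1 or either knock-out CHIR99021 library. The summed level of the 16 listed markers was 150 to 153 CPM in knock-out cells with CHIR99021, 169 to 179 CPM in knock-out cells with DMSO, 102 to 105 CPM in parental cells with CHIR99021 and 174 to 185 CPM in parental cells with DMSO. Nes, an intermediate filament gene of neural progenitors, fell by 0.409 in knock-out and 1.28 in parental cells on the log2 scale, and Tubb3, a neuronal tubulin gene, by 0.348 and 1.13 (edgeR adjusted p 4.48e-07 to 0.0206). Msi1 was the marker that rose in both lines. Its means were 18.4 CPM with CHIR99021 and 12.2 CPM with DMSO in knock-out cells, and 24.6 and 14.1 CPM in parental cells. Neurog2, a neurogenic factor gene, was at 0 counts in every group. The interaction passed for 7 of the 11, all positive, among them Tubb3 at 0.78 ± 0.09, Ncam1 at 0.69 ± 0.10, Nes at 0.87 ± 0.13 and Map2 at 0.91 ± 0.15 (adjusted p 0.000303 to 0.00421). Between the lines none of the 11 passed in DMSO with edgeR (3 at an unadjusted p under 0.05, 0 with DESeq2 and 0 with limma-voom), and in CHIR99021 7 were higher and 1, Msi1, lower in knock-out cells. Over all genes tested 3.13% were higher and 3.62% lower in DMSO, and 11.2% and 12.5% in CHIR99021. A positive interaction passed for 3.22% of them and a negative one for 2.91%. The part of neural cells in the changes of Pou3f1, Sox4 and Fgf15, genes that neural progenitors also express, was not tested.

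Markers of the primitive streak and mesoderm summed to 48.6 to 51.3 CPM with CHIR99021 and 66.6 to 75.9 CPM with DMSO in knock-out cells, and to 191 to 195 CPM with CHIR99021 and 71.2 to 73.8 CPM with DMSO in parental cells. Fgf17 made up most of the sums in knock-out cells, with means of 39.8 CPM with CHIR99021 and 61.5 CPM with DMSO. In parental cells Fgf17 had means of 41 and 64.3 CPM, Cdx1 of 105 and 1.81 CPM and Eomes of 30.4 and 1.48 CPM. Of 9 tested 1 rose, Cdx1, and 1 fell, Fgf17, in knock-out cells, where 2.88% of all genes rose and 4.18% fell. In parental cells 4 rose, Cdx1, Eomes, T and Cdx2, and 1 fell, Fgf17, where 9.10% of all genes rose and 10.3% fell. Between the lines none of the 9 passed in DMSO with edgeR (2 at an unadjusted p under 0.05, 0 with DESeq2 and 0 with limma-voom), 4 were lower in knock-out cells in CHIR99021, and the interaction passed for 4, all negative. Both times the 4 were Cdx1, Eomes, T and Cdx2. Over all genes tested 3.13% were higher and 3.62% lower in DMSO, and 11.2% and 12.5% in CHIR99021. A positive interaction passed for 3.22% of them and a negative one for 2.91%. Endoderm markers, listed because Otx2 is also known from visceral endoderm, summed to 228 to 245 CPM with CHIR99021 and 236 to 250 CPM with DMSO in knock-out cells, and to 117 to 122 CPM with CHIR99021 and 179 to 185 CPM with DMSO in parental cells. Ttr, a defining gene of the visceral endoderm, was at 0 counts in every group and Afp in 3 of the 4. Of 10 tested endoderm markers none passed in knock-out cells with edgeR, with 2 at an unadjusted p under 0.05, 0 with DESeq2, 1 with limma-voom and 1 without either parental CHIR99021 library. In parental cells 4 fell and 1 rose, a count of 5 that became 3 without either parental DMSO library or parental CHIR99021 replicate 2. Set against parental cells, knock-out cells had 5 of the 10 endoderm markers higher in DMSO and 6 in CHIR99021, and none lower (median log2 fold change 1.02 and 0.872). Col4a1, a basement membrane collagen gene, was higher by 1.20 ± 0.07 in DMSO and 2.26 ± 0.08 in CHIR99021 on the log2 scale, and Gata4, an endoderm factor gene, by 1.08 ± 0.14 and 1.24 ± 0.14 (edgeR adjusted p 1.42e-08 to 0.00171). The DMSO count of 5 became 3 without either parental DMSO library or knock-out DMSO replicate 1. The interaction passed for 3 of the 10, all positive, among them Col4a1 at 1.06 ± 0.11 (adjusted p = 0.000227). Trophoblast markers lay between 83.8 and 97.4 CPM in sum over the 8 libraries, with Tpbpa at 0 counts, and those of surface ectoderm and neural crest between 12.6 and 20.5 CPM. The trophoblast sum hides moves in both directions. Of 8 tested, Tead4 rose and Gata2 and Tfap2c fell with CHIR99021 in both lines, and Cdx2 rose in parental cells. In parental cells Tead4 had means of 47 CPM with CHIR99021 and 33.8 CPM with DMSO, and Tfap2c of 36.1 and 45.6 CPM. Of 5 tested surface ectoderm and neural crest markers only Foxd3 passed with CHIR99021, lower in both lines. The part of these cell types in the results was not tested.

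Naive pluripotency factors moved in both directions in parental cells. Of 15 tested none rose and 3 fell with CHIR99021 in knock-out cells, and 4 rose and 6 fell in parental cells (median log2 fold change -0.0704 and -0.00723). In parental cells Tfcp2l1, Sp5, Klf4 and Tbx3 rose, and Tcl1, Prdm14, Nanog, Nr0b1, Gbx2 and Zfp42 fell. In knock-out cells Gbx2, Nr5a2 and Prdm14 fell. Between the lines 5 were lower in knock-out cells in DMSO (3.62% of all genes), and 2 higher and 7 lower in CHIR99021 (11.2% and 12.5%). The interaction passed for 2 with positive and 4 with negative values (3.22% and 2.91%). The knock-out count of 3 became 6 without knock-out DMSO replicate 2 and with DESeq2. Among all genes tested 4.18% fell and 2.88% rose in knock-out cells, and 10.3% fell and 9.10% rose in parental cells. The stem cell markers share Utf1 and Lin28a with the wider formative list, and Nanog and Zfp42 with the naive list. Of the 10 embryonic stem cell markers 4 fell and 1 rose in knock-out cells, and 7 fell and none rose in parental cells. That knock-out count of 5 was 1 without knock-out DMSO replicate 1, 8 without knock-out DMSO replicate 2, 0 without knock-out CHIR99021 replicate 1 and 2 without knock-out CHIR99021 replicate 2.

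Genes with the most similar profiles were picked for each tested gene by the smallest root mean square difference of centred log2 CPM over the 8 libraries, among genes with a mean of at least 5 CPM. Nearest to Fgf15, whose own deviation was 0.537, stood 9330159F19Rik at 0.0631, Nes at 0.0681 and Atp1b2, a subunit gene of the sodium pump, at 0.106. Nearest to Pou3f1, with a deviation of 0.601, stood Igfbpl1 at 0.132, Fgf1 at 0.134 and Atp1b2 at 0.136. For Grhl2, at 0.735, the nearest were Bnc2 at 0.187, Oas2 at 0.196 and Mcam at 0.204.

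For Otx2 the nearest genes stayed far off: Actn3 at 0.516, Zmat4 at 0.518 and Fgf1 at 0.524 beside its own deviation of 0.98. Zic2, at 0.502, had Gm14387 at 0.236, She at 0.254 and Foxd3 at 0.266, the last a member of the wider formative list. Sox4, at 0.249, had Plekhg1 at 0.0559, Cmklr1 at 0.0693 and Shb at 0.07, and Sox11, at 0.147, had Tmem106c at 0.0488, Rpusd3 at 0.0532 and Rps19bp1 at 0.0546. Otx2 and Zic2 had few counts, and the part of counting noise in their distances was not tested.

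**Figure D4:**
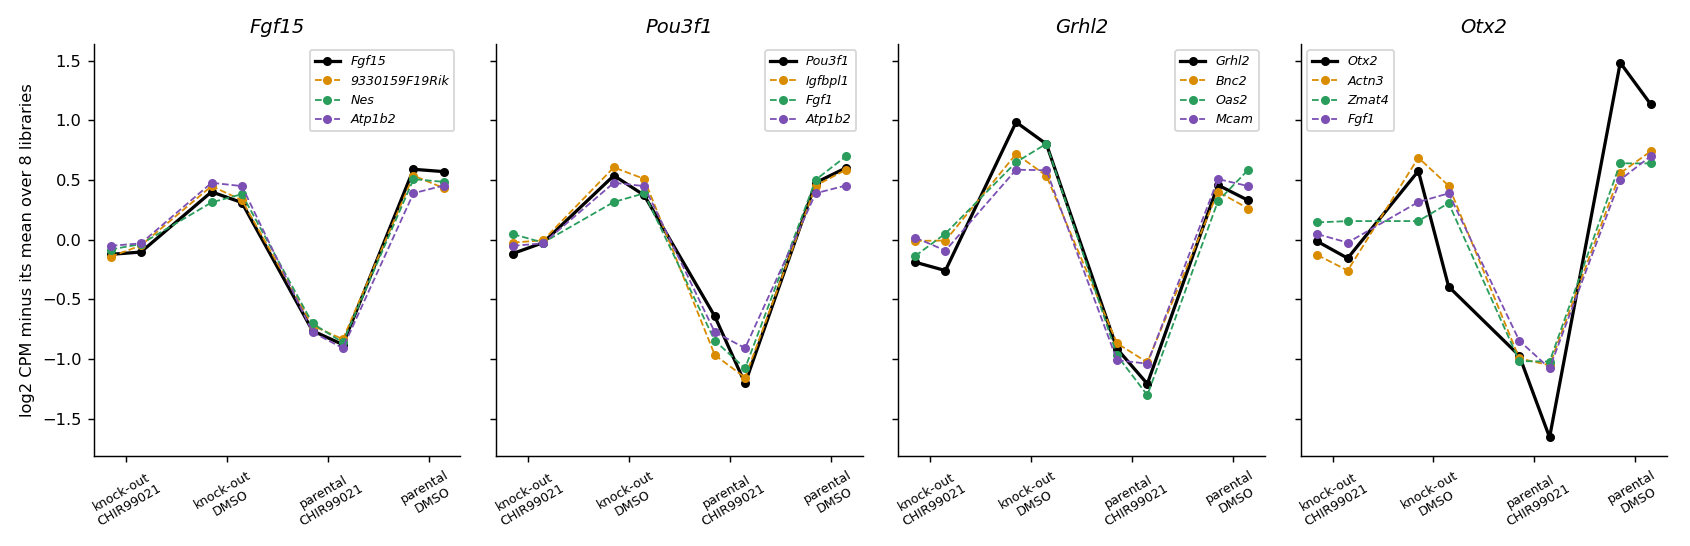
Centred log2 CPM (y axis; each gene's mean over the 8 libraries is 0) of Fgf15, Pou3f1, Grhl2 and Otx2 (black, solid) and of the 3 genes nearest to each (dashed) in the 4 groups (x axis, 2 libraries each); lines join the libraries to guide the eye. The dashed profiles follow Fgf15 closely. Otx2 reaches farther than its nearest genes in both parental DMSO libraries and in parental CHIR99021 replicate 2. In parental CHIR99021 replicate 1 it does not, at -0.9718 beside -0.9943 for Actn3 and -1.0171 for Zmat4.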

How the data were processed

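RNA was sequenced from TruSeq Stranded mRNA libraries, per the labels' protocols. The authors deposited expected counts (estimated reads per gene, not normalised), made with kallisto on build GRCm38.p4 per the submitters' processing notes; version, transcript set and strand setting are not given in the sources used here. Counts were rounded. The low-count filter was filterByExpr (edgeR 4.0.16, R 4.3.3; groups given, minimum count 10, minimum total 15), and TMM factors ran from 0.98573 to 1.0181. Group means were fitted to all 8 libraries by quasi-likelihood (4 residual degrees of freedom, common biological coefficient of variation 0.0532). Each contrast was tested two-sided, with Benjamini-Hochberg adjustment over 17739 genes and a threshold of 0.05. SE is the absolute log2 fold change over the root of F. The variance between replicates was 3.262 to 4.856 times that expected from counting, so none was treated as a duplicate. Log2 CPM for profiles used a prior count of 2.

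The genes and lists were chosen with earlier results of these data known. Lists got no test of their own. Named genes are all 8 genes in every comparison and the 3 nearest profiles. From a list up to 4 called genes of a comparison are named, most of them among those with the smallest adjusted p. Some relatives, receptors and defining markers of a list are given as values. Not every called gene with a small adjusted p is given: Spry2, Fgfr1 and Fgfr2 are examples. Comparisons between the lines are not described for every list. A gene so named in 1 line is given in both. Genes of the streak, trophoblast, surface ectoderm and naive lists called between the treatments are also given by name. Positions and exons come from GENCODE M21 (GRCm38). Genes on the opposite strand overlap Fgf15, Pou3f1, Otx2, Grhl2 and Sox4. Alternatives were DESeq2 1.42.0, limma-voom (limma 3.58.1), relative log expression factors, 2 other filters, the compared groups alone, a replicate block, 2 other thresholds and leaving out each library. The procedure was tested on simulated data.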

Additional observations from a re-analysis of the deposited data

Results flagged for a closer look

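Differences between the 2 lines in their response to CHIR99021 were tested as an interaction (log2 response of knock-out cells minus that of parental cells, edgeR). Streak and naive genes that passed, and further genes of the lists, are not listed here. Differences that passed for the 8 genes or for other genes named above are given, except that of Elf3. Among the 8 genes these were Fgf15 at 0.936 (adjusted p = 0.00118) and Otx2 at 2.56 (adjusted p = 0.0269). In the wider formative list they were Dnmt3a at 0.731, Tdgf1 at 0.32, Lin28b at 0.488, Zic5 at 0.838 and Sall2 at 0.662, and on the negative side Dnmt3b at -0.427 and Etv4 at -0.265 (adjusted p 8.68e-05 to 0.0262). Among the relatives they were Fgf4 at 0.837 and again Zic5 (adjusted p = 4.96e-06 and 0.021). Of the fibroblast growth factor list they were Dusp4 at 1.71, Etv1 at 0.635 and again Etv4 (adjusted p 0.00146 to 0.0262). Of the epithelial list they were Cldn4 at 0.615, Krt8 at -0.529, St14 at -0.513 and Spint1 at -0.276 (adjusted p 0.00305 to 0.0421). Of the neural markers they were Tubb3 at 0.783, Ncam1 at 0.69, Nes at 0.874 and Map2 at 0.908 (adjusted p 0.000303 to 0.00421). The endoderm marker Col4a1 was at 1.06 (adjusted p = 0.000227), and the stem cell marker Sox2 at 0.264 (adjusted p = 0.024). Groups of 2 libraries are too small for a check of single outlying libraries.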

How the results depend on the processing

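Of 493 values of the 7 genes under alternatives 482 kept their direction and 452 also their side of the threshold. In parental cells the count of 5 genes called stayed within 1.5 times its value in every alternative. In knock-out cells 2 were called, and 0 with DESeq2, where only 2 of the 7 had an adjusted p, 1 at an adjusted p under 0.01 or with a fold change over 2, and 1 to 2 when single libraries were left out. Between the lines in DMSO 1 was called, 0 with DESeq2, with the compared groups alone, at 0.01 and with a fold change over 2, 2 with limma-voom, no filter or the replicate block, and 0 to 1 without single libraries. In CHIR99021 the 3 calls became 0 with a fold change over 2. The interaction count of 2 became 1 with DESeq2, at 0.01 and with a fold change over 2, and 1 to 2 without single libraries.

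Values that changed sign were all uncalled. Sox11 between the lines in DMSO was at -0.000325 on the log2 scale, and at 0.000248 with relative log expression factors, 0.00013 with DESeq2, 0.00171 with the replicate block and -0.1 to 0.0918 without single libraries. Without single libraries Otx2 in knock-out cells ran from -0.702 to 0.343, Zic2 between the lines in CHIR99021 from -0.602 to 0.124 and Sox4 between the lines in DMSO from -0.175 to 0.0233.

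Replicate numbers gave no pairing: the correlation of same-numbered libraries ran from -0.0561 to 0.104 over the pairs of groups, and no label names a shared batch. With the number as a block the calls among the 17739 genes were 1313, against 1252 without it, in knock-out cells, 3434 against 3441 in parental cells, 1225 against 1198 between the lines in DMSO, 4296 against 4200 in CHIR99021 and 1135 against 1087 for the interaction. Among these genes DESeq2 called 2205 in parental cells, 795 between the lines in DMSO and 2709 in CHIR99021, and without a filter 2125 were called in knock-out cells, 2026 between the lines in DMSO and 1955 for the interaction. Without knock-out DMSO replicate 1, CHIR99021 replicate 1 or CHIR99021 replicate 2 the calls in knock-out cells were 335, 307 and 328. In parental cells 2055 to 2244 genes were called without either DMSO library or CHIR99021 replicate 1. Between the lines 355, 507, 561 and 716 were called in DMSO without parental replicate 1 or 2 or knock-out replicate 1 or 2, and in CHIR99021 2583, 2671 and 2501 without parental replicate 1 or knock-out replicate 1 or 2. The interaction calls were 604 to 724 without parental DMSO replicate 1 or 2, parental CHIR99021 replicate 1, knock-out DMSO replicate 1 or knock-out CHIR99021 replicate 2. The causes were not tested. Depth limits Fgf5, Otx2 and Zic2 most, with at most 103 summed counts in a group.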
